A study of Homo sapiens with 12 samples.

Results

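Levels of 7 named genes were described across the arrays of a toxicology study in HK-2, a human kidney cell line that derives from proximal tubule and was made immortal. They were 7 of 19775 genes with a named probe set, and their 14 probe sets, groups of short probes for 1 transcript region, were all of those annotated to them. BLNK, MOB3B, PPP1R1A, ILDR2, MUC1 and SGK1 were selected on measured values, because the change of their level between 24 and 48 h of culture was lower under Kbr than in controls, and RAB17 as a gene that was higher at 48 h in both. Levels at both times in both conditions thus chose the genes, so their values are given below as a description and no test of them is reported. Near confluence, cells received Kbr at low dose for 48 h or for 24 h, or vehicle for 48 h or for 24 h, in a medium that held hydrocortisone and insulin in all 4 groups. Each group held 3 biological replicates of this single line, with 1 Affymetrix array each. What Kbr abbreviates, and its concentration, were not stated in the labels. The study asked how low-dose Kbr, one of several compounds tested in these cells, alters gene expression.

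Levels are deposited log2 expression values, so a difference of 1 is a 2-fold change, and the differences below are Kbr minus control or 48 h minus 24 h. Where a gene had several probe sets, the one with the highest mean over the 12 arrays stood for it. Log2 values below 4 lie near the background of these arrays. In the deposited values, 40.0 to 40.4% of the 54675 probe sets on each array lay above 4. All 7 genes were above 4 on at least 3 arrays and so were among the 10665 genes tested across the whole table. BLNK and MOB3B were above 4 on control arrays only. As a sign of RNA quality, ACTB control probes read higher at the 3′ than at the 5′ end by log2 values between 0.67 and 1.07 over the 12 arrays. In RNA from whole cultures, fewer cells that express a gene and less RNA per cell cannot be told apart.

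As background, cultured tubular epithelium goes on to change after it reaches confluence, when cells stop dividing, seal their junctions and sort proteins to an apical and a basal side. MUC1 is a mucin of the apical membrane, and RAB17 is a small GTPase of epithelial cells that acts in traffic through recycling endosomes. SGK1 is a kinase induced by glucocorticoids and mineralocorticoids that raises sodium transport in the kidney. BLNK is best known as the adaptor that links the B cell receptor kinase SYK to downstream enzymes, and PPP1R1A is an inhibitor of protein phosphatase 1 that acts once protein kinase A has phosphorylated it. MOB3B belongs to the MOB family of kinase activators, and ILDR2 to the angulins, membrane proteins found where the corners of epithelial cells meet.

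A higher level at 48 h in controls, with little difference in treated cells, was seen in BLNK, MOB3B and PPP1R1A. ILDR2 and MUC1 were also higher at 48 h in controls, but in Kbr-treated cells their levels were lower at 48 h than at 24 h. SGK1 went against the description, since its level in controls was the same at both times to within the spread of replicates, and its difference came from a lower level in treated cells at 48 h. The median over the 6 genes of the change with time was -0.30 in Kbr-treated cells and 1.11 in controls. The median of the differences between these changes was -1.46. Over all genes tested, the median change was -0.01 in Kbr-treated cells and -0.02 in controls.

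**Figure D1:**
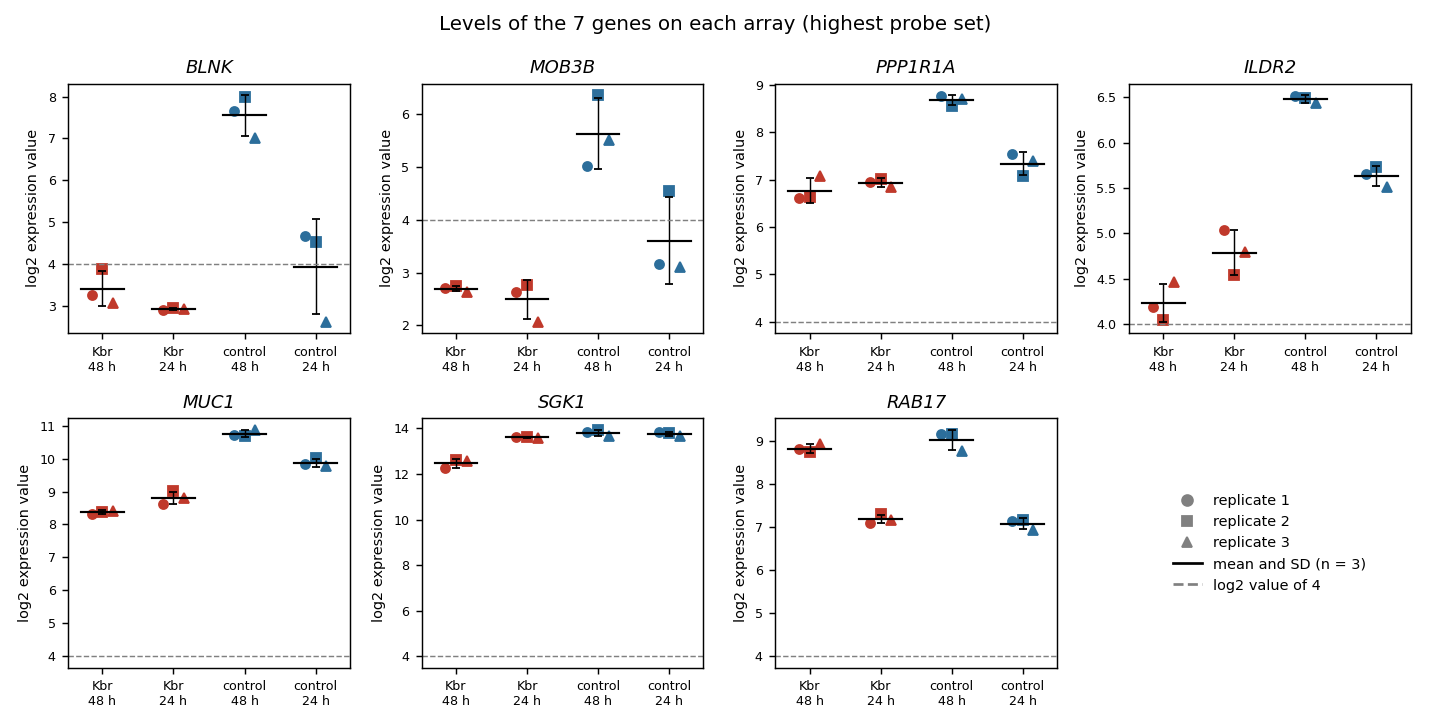
Log2 expression value of each gene (vertical axis, own scale per panel) on the 3 arrays of each group, with bars for the mean and SD and a dashed line at a log2 value of 4. BLNK and MOB3B lie below the dashed line on all Kbr arrays, and RAB17 is the gene whose 48 h arrays lie above its 24 h arrays by a similar amount in both conditions.

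By mean change with time in controls, which entered the choice of genes, BLNK had the largest increase of all 10665 genes. That rank includes a 24 h control value at the background, and no rank was taken without it. In Kbr-treated cells it stood at 3.27, 3.88 and 3.08 at 48 h and at 2.89, 2.94 and 2.93 at 24 h. In controls it stood at 7.65, 7.98 and 7.02 at 48 h and at 4.66, 4.53 and 2.63 at 24 h. All 6 Kbr values and 1 of the control values at 24 h, that of replicate 3, lay below 4, and the 48 h controls lay clear of every other array. The change with time was 0.49 ± 0.40 in Kbr-treated cells and 3.61 ± 0.72 in controls (mean ± SD of the 3 differences within a replicate number). No fold is given because of the 24 h control value at the background. The change in controls was 2.95 on the log2 scale without that array and 3.15 with values below 4 set to 4. Although Kbr arrays at 48 h did not overlap those at 24 h, both sets were in the range where values depend on the background correction.

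Only 1 probe set represented BLNK, and the defining genes of the cells it is known from were not seen. Of 10 fixed markers of B cells and other leukocytes 8 were measured, among them MS4A1, CD79A, CD79B and PAX5, and all 8 lay below 4 on all arrays, with 3.72 as the highest value. The sum of their log2 values was 21.7 to 21.9 in Kbr arrays and 21.6 to 21.8 in control arrays at 48 h. Of the 16 measured genes of B cell receptor signalling, 8 passed the filter. SYK, the kinase that BLNK docks to, had a highest value of 3.03 and CLNK, a relative of BLNK, one of 2.94.

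MOB3B had a similar shape one step lower. Its highest probe set read 2.71, 2.74 and 2.64 in Kbr-treated cells at 48 h and 2.64, 2.77 and 2.07 at 24 h. In controls it read 5.03, 6.36 and 5.50 at 48 h and 3.16, 4.55 and 3.10 at 24 h. The 6 Kbr arrays and 2 of the 24 h controls were below 4, and the 48 h controls were above all other arrays. The change with time was 0.20 ± 0.32 in Kbr-treated cells and 2.03 ± 0.33 in controls. Replicate 2 was highest in both control groups, and the control change was 2.50 without it at 24 h and 1.66 without it at 48 h. With values below 4 set to 4, the control change was 1.45. Within replicate numbers the difference between these changes was -1.80, -1.84 and -1.83. Most of the values behind these 3 differences lay below 4, so nothing is read from how close they are. Of the other 3 MOB3B probe sets, all below 4 on all 12 arrays, 2 were higher in 48 h controls than in 24 h controls within all 3 numbers, by means of 0.38 and 0.32, and the third moved by -0.01.

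PPP1R1A was well above background on all arrays. It stood at 6.61, 6.62 and 7.07 in Kbr-treated cells at 48 h and at 6.95, 7.01 and 6.84 at 24 h, so these groups overlapped. In controls it stood at 8.77, 8.56 and 8.70 at 48 h and at 7.55, 7.07 and 7.39 at 24 h, with no overlap. The change with time was -0.17 ± 0.35 in Kbr-treated cells and 1.34 ± 0.14 in controls, a 2.54-fold higher level at 48 h. By mean level, 48 h controls came first and 24 h controls second. The 24 h controls lay above the 24 h Kbr arrays but overlapped the 48 h Kbr arrays, where replicate 3 reached 7.07. The 24 h and 48 h Kbr groups did not differ beyond their spread. A second probe set of PPP1R1A read 2.39 to 2.80 throughout.

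**Figure D2:**
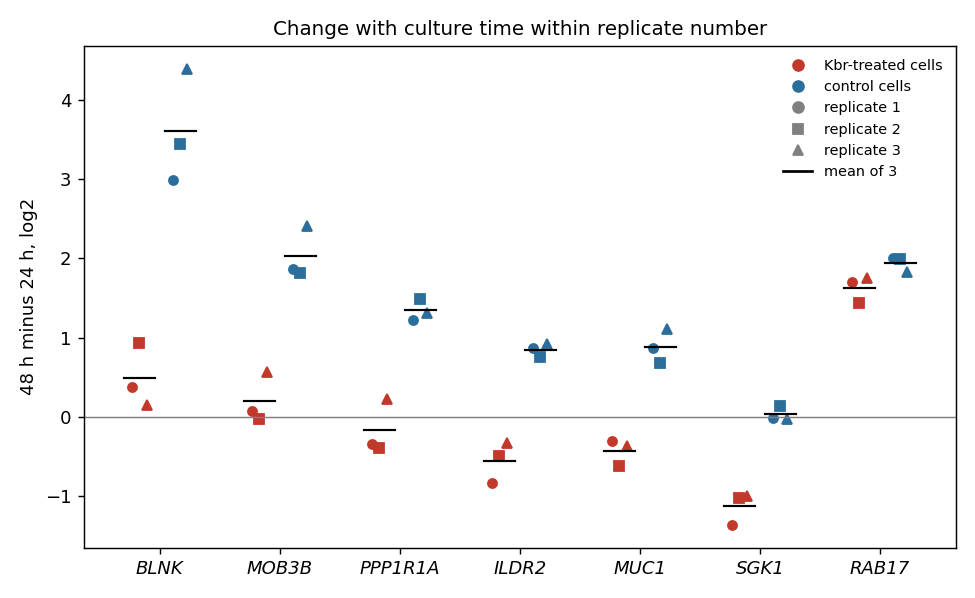
Log2 difference between 48 h and 24 h within each replicate number (vertical axis) for the 7 genes, with Kbr-treated cells left of control cells and a bar at the mean of 3. In all 7 genes all 3 control differences lie above all 3 Kbr differences. SGK1 has control differences around 0. RAB17 has the narrowest gap, with differences of 1.44 to 1.75 under Kbr and 1.83 to 2.00 in controls.

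The membrane proteins ILDR2 and MUC1 had differences with time of opposite sign in Kbr-treated cells and in controls. ILDR2 stood at 4.19, 4.05 and 4.46 in Kbr-treated cells at 48 h and at 5.03, 4.54 and 4.79 at 24 h. In controls it stood at 6.52, 6.50 and 6.44 at 48 h and at 5.65, 5.74 and 5.51 at 24 h. None of the 4 groups overlapped another, and the order from the top was 48 h controls, 24 h controls, 24 h Kbr and 48 h Kbr. The change with time was -0.55 ± 0.26 in Kbr-treated cells and 0.85 ± 0.08 in controls. The 48 h Kbr values lay just above 4, near the background. A second ILDR2 probe set lay between 2.48 and 2.62 on all arrays.

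MUC1 followed the same order at a higher level. Its highest probe set read 8.32, 8.39 and 8.42 in Kbr-treated cells at 48 h and 8.63, 9.00 and 8.79 at 24 h. In controls it read 10.70, 10.69 and 10.87 at 48 h and 9.83, 10.01 and 9.77 at 24 h. Again no 2 groups overlapped. The change was -0.43 ± 0.16 in Kbr-treated cells and 0.89 ± 0.21 in controls. The Kbr level was 5.21-fold lower than the control level at 48 h and 2.09-fold lower at 24 h.

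MUC1 was the gene for which several probe sets gave a signal. A second one had a change of -0.61 ± 0.15 in Kbr-treated cells and 0.75 ± 0.33 in controls, and was 7.68-fold lower under Kbr than in controls at 48 h. The third, whose name marks probes that also match other transcripts, was below 4 on all 6 Kbr arrays and above 4 on all 6 control arrays. Its change was -0.10 ± 0.59 in Kbr-treated cells and 0.86 ± 0.77 in controls, and its 48 h and 24 h controls overlapped. The difference between the changes was -1.32, -1.36 and -0.96 over the 3 probe sets.

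**Figure D3:**
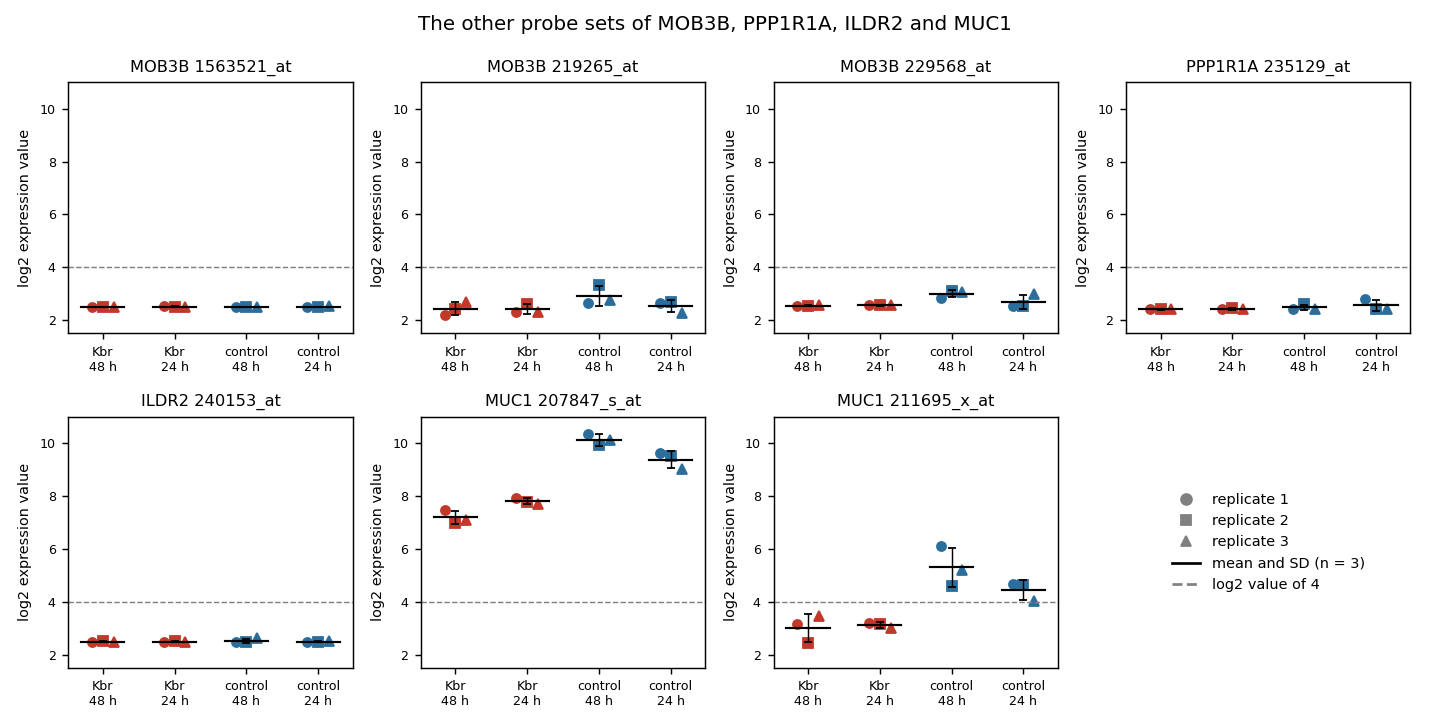
Log2 expression value (vertical axis, same scale in all panels) of the 7 probe sets that did not stand for a gene, on the 3 arrays of each group, with bars for mean and SD. Both MUC1 probe sets show lower Kbr than control arrays, and the 5 others lie below the dashed line at 4 on all arrays.

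SGK1 had a high and even level in 3 groups. It stood at 12.25, 12.61 and 12.58 in Kbr-treated cells at 48 h and at 13.61, 13.64 and 13.57 at 24 h. In controls it stood at 13.83, 13.93 and 13.65 at 48 h and at 13.84, 13.79 and 13.68 at 24 h. The control groups overlapped, and the 24 h Kbr arrays lay just below all 6 controls. The change with time was -1.13 ± 0.20 in Kbr-treated cells, a 2.19-fold lower level at 48 h, and 0.03 ± 0.09 in controls. SGK1 ranked 4335 among the 10665 genes by its change in controls, where PPP1R1A ranked 30, MUC1 138 and ILDR2 152. This change entered the choice of genes.

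RAB17 was higher at 48 h in both conditions. It stood at 8.79, 8.73 and 8.92 in Kbr-treated cells at 48 h and at 7.10, 7.29 and 7.17 at 24 h. In controls it stood at 9.15, 9.16 and 8.75 at 48 h and at 7.15, 7.16 and 6.93 at 24 h. Kbr and control arrays overlapped at each time. The change was 1.63 ± 0.17 in Kbr-treated cells, which is 3.09-fold, and 1.94 ± 0.10 in controls, which is 3.84-fold. The difference between these changes was -0.31 ± 0.24, below 0 in 3 of 3 replicate numbers, and thus small beside those of the other 6, which ran from -3.12 for BLNK to -1.16 for SGK1. By change in controls, which entered the choice of genes, RAB17 ranked 6 among all genes tested.

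**Figure D4:**
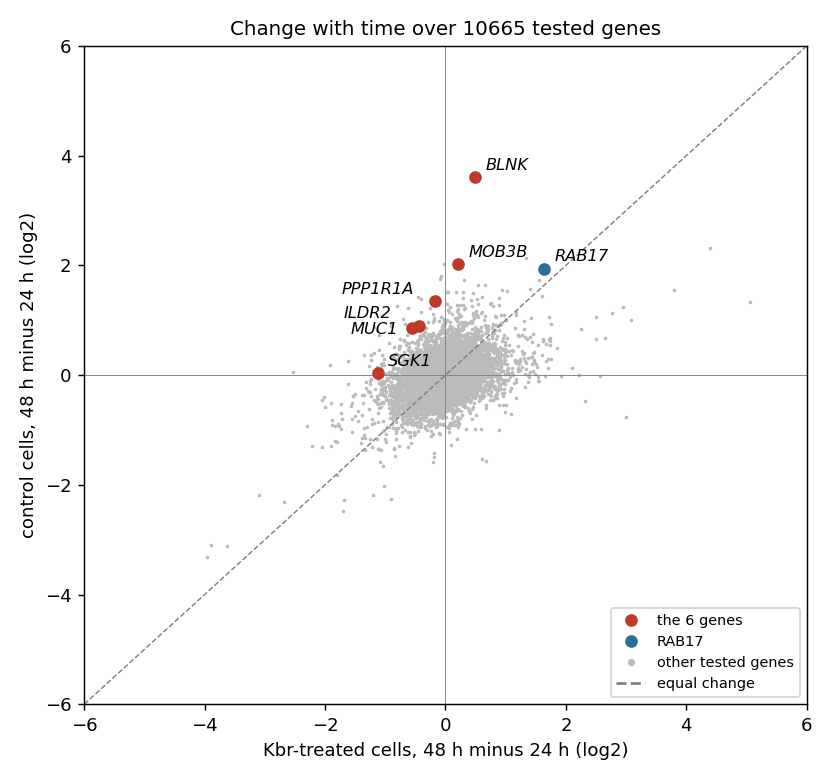
Change from 24 to 48 h (log2) in Kbr-treated cells (horizontal axis) and in controls (vertical axis) of 10665 tested genes, each a grey point, with the 7 genes marked. BLNK at 0.49 and 3.61 lies apart from all other points, RAB17 lies near the dashed line of equal change, and SGK1 lies at -1.13 and 0.03.

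Counts of groups that did not overlap are set here beside the share of all tested genes with the same property, and nothing is read from them where the choice of genes used that difference. In 5 of the 6 genes the 48 h controls lay above the 24 h controls without overlap, as in 11.9% of tested genes. Kbr arrays at 48 h lay above those at 24 h in 1 of the 6 (15.3% of tested genes) and below them in 3 (15.5%). Kbr arrays were below controls at 48 h in all 6 (24.9%) and at 24 h in 5 (15.9%), the exception being BLNK through control replicate 3. For MOB3B the 24 h order is largely one among values below 4, since 2 of its 3 controls also lay there. Without that array, an alternative added after seeing the data, all 6 lay below. No member lay above controls at 48 h (26.0%). The difference between the changes with time was below 0 in 3 of 3 replicate numbers in all 6 (26.4%). The combination seen in ILDR2 and MUC1, controls higher at 48 h and Kbr-treated cells lower at 48 h, both without overlap, occurred in 57 genes or 0.534%. The broader one, controls higher without overlap and Kbr-treated cells not, occurred in 827 genes or 7.75%.

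At 24 h the difference from controls was already present in most of the genes. It was -1.06 ± 0.12 for MUC1, -0.85 ± 0.31 for ILDR2, -0.40 ± 0.30 for PPP1R1A and -0.16 ± 0.06 for SGK1, with all 3 differences within replicate numbers below 0 in each. MOB3B was at -1.11 ± 0.64 and BLNK at -1.02 ± 1.15, both with treated arrays below 4. RAB17 was at 0.11 ± 0.15. These 24 h arrays also enter the change with time, so the 24 h difference is not an independent measure.

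Deviations from the group means were not used to choose the genes. Over the 12 arrays with group means removed, the correlation between 2 of the 6 genes ran from -0.55 to 0.56 over 15 pairs, with a median of 0.13. RAB17 had correlations of 0.12 to 0.57 with the 6. With the group means kept in, the 15 pairs ran from 0.43 to 0.97 with a median of 0.87, which the choice of genes on their group means had fixed. BLNK lay below 4 on 7 and MOB3B on 8 of the 12 arrays, and deviations there are of values near background. MUC1 and ILDR2 were the closest pair, at 0.97 with group means in and -0.37 with them removed. The arrays share 4 groups and 3 replicate numbers, and these values are descriptions.

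For each gene the 3 tested genes with the most similar values over the 12 arrays were found by Pearson correlation. Nearest to BLNK were ACAT1, a mitochondrial thiolase (r = 0.98, Spearman 0.91), the glypican GPC6 (0.98) and the acyl-CoA synthetase ACSM3 (0.97). ACSM3 changed with time by 0.30 in Kbr-treated cells and 1.27 in controls, at levels between 7.42 and 9.35, well above background. Nearest to MOB3B were CFHR2 (0.97), the choline transporter-like SLC44A5 (0.97) and CREBL2 (0.96). SLC44A5 changed by 0.31 in Kbr-treated cells and 1.74 in controls. Nearest to PPP1R1A were the carotene oxygenase BCO1, the ceramide synthase CERS2 and the chitinase-like CHI3L1 (0.96 each).

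ILDR2 was followed most closely by the ferric reductase CYBRD1 (0.98), PDZK1IP1 (0.98) and ANAPC13 (0.98), and MUC1 by the transcription factor HLF (0.99), the sialyltransferase ST6GAL1 (0.98) and KIDINS220 (0.98). HLF changed by -0.42 in Kbr-treated cells and 0.93 in controls, close to the values of MUC1. SGK1 had GSTA4, C5orf15 and DCBLD2 (0.98 each) as neighbours, which changed by -0.73, -0.48 and -0.62 in Kbr-treated cells and by -0.01, 0.01 and -0.12 in controls. RAB17 had HLA-DMB (0.96), TMEM243 (0.96) and PELI2 (0.94), and HLA-DMB changed by 0.82 in both conditions. Groups drive these correlations, and a high correlation says only that the group means have the same order and spacing.

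The stretch of 250 bases upstream of the annotated start was read from a RefSeq table (GRCh38.p14), which held 10 starts of 6 of the 7 genes and none of PPP1R1A. Those of BLNK, MUC1 and RAB17 are shown because they are a gene near background under Kbr, a gene of high level and the gene that was higher at 48 h in both conditions. Capitals mark matches, on either strand, to the letters of 6 motifs described below, and no matches overlapped in these stretches. Positions are BLNK at chr10:96271570-96271819, MUC1 at chr1:155192916-155193165 and RAB17 at chr2:237590735-237590984, all on the minus strand and written 5′ to 3′.
BLNK: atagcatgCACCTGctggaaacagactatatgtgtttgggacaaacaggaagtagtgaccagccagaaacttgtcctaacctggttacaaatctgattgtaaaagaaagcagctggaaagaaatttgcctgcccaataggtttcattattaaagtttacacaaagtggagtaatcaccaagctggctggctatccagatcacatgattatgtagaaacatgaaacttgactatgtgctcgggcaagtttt
MUC1: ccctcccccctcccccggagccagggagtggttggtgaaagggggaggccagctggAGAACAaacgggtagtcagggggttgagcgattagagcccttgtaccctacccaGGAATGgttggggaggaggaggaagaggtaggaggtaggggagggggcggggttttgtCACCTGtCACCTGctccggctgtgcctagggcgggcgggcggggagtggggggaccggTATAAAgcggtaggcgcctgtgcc
RAB17: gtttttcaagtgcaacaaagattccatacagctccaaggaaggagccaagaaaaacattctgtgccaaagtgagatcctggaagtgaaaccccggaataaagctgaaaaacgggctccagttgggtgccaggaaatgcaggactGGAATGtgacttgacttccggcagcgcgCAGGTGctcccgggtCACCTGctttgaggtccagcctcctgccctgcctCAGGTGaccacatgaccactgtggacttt

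The E-box searched was CACCTG. It was in 5 of the 10 stretches, 2 of which are nearly the same MUC1 sequence, and in 17.5% of 35116 such stretches of all genes. There was 1 match in BLNK, 2 in MUC1, 2 at one start of ILDR2 and 3 in RAB17. AGAACA, part of the site of the glucocorticoid receptor, was in MUC1 and at one start of ILDR2 (12.4% of all stretches) and in none of the 3 SGK1 starts. GGAATG, which TEAD factors bind, was in MUC1 and RAB17 (11.9%). The TATA box letters TATAAA were in MUC1 and at all 3 SGK1 starts (10.7%). The AP-1 motif (TGA, then any base, then TCA) and the antioxidant response motif TGACNNNGC, in 6.57% and 10.9% of all stretches, were in none of the 10. The letters searched were chosen with the sequences in view, a match is not a binding site, and which start HK-2 cells use was not measured.

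Other genes of the members' pathways were taken from 12 fixed lists, and 129 of their 214 genes passed the filter and were tested with limma across all 10665 genes. At 48 h 42 were lower and 19 higher in Kbr-treated cells than in controls at an adjusted p under 0.05, beside 42.8% of all genes called, 20.8% lower and 22.0% higher. The lists were chosen with earlier results of these data known. Between 47 and 61 of the 129 passed when 1 array was left out.

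Of 16 tested genes of SGK and glucocorticoid signalling, 6 were lower and 2 higher under Kbr at 48 h, beside 20.8% and 22.0% of all genes. The list median was -0.07 against -0.0038 over all genes. SCNN1A, the alpha subunit of the epithelial sodium channel that SGK1 regulates, stood at 7.87, 8.01 and 8.40 in Kbr-treated cells and at 9.42, 9.07 and 9.46 in controls at 48 h (log2 difference -1.22, standard error 0.15, limma adjusted p = 0.000187). The log2 difference of the mineralocorticoid receptor NR3C2 was -1.80 (adjusted p = 0.00834), and -1.15 without Kbr replicate 3. CEBPD, a transcription factor that glucocorticoids induce, was 0.65 lower (adjusted p = 0.000737). Named after their values were seen, the glucocorticoid receptor NR3C1 (-0.75, adjusted p = 0.0119) and the glucocorticoid-induced FKBP5 (-0.73, 0.0107) and TSC22D3 (-1.32, 0.0341) were also lower. TSC22D3 lost its call when Kbr replicate 1 or 3, or control replicate 1 or 2, of the 48 h arrays was left out (up to 0.133). The genes that were higher were NDRG1, whose product SGK1 phosphorylates (1.30, adjusted p = 0.00863, and 0.86 without Kbr replicate 1), and ERRFI1 (0.71, adjusted p = 0.0283), named after its value was seen and lost without either of 2 Kbr or 2 control arrays at 48 h (up to 0.106).

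Over time in Kbr-treated cells 3 of the 16 rose and 0 fell, beside 5.6% and 5.04% of all genes. Those that rose were NDRG1 (1.22, adjusted p = 0.0397, and 0.78 without replicate 1 at 48 h), the ubiquitin ligase NEDD4L (0.48, 0.0338) and RICTOR, a subunit of the complex that activates SGK1 (0.43, 0.0204). Each of these calls was lost without at least 4 of the 12 arrays in turn (up to 0.129, 0.106 and 0.0868). None of the 16 genes passed the test of the difference between the changes with time in Kbr-treated cells and in controls. With the replicate block 1 of the 16 was higher and 1 lower in that test. TSC22D3 changed by 1.00 in Kbr-treated cells and by 1.03 in controls (adjusted p = 0.167 and 0.215), and its log2 difference under Kbr at 24 h was -1.29 (adjusted p = 0.109). With the replicate number as a block these passed, at 0.00505, 0.00577 and 0.00272. SCNN1A had a difference of changes of -0.85 (adjusted p = 0.125, and 0.0451 with the block). Of the 16 genes none passed between Kbr and control at 24 h, and 4 were lower with the replicate number as a block.

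Among mucins and the enzymes that glycosylate them, 10 of 25 genes passed the filter. Under Kbr at 48 h 5 of these were lower and 1 higher (median -0.42), beside 20.8% and 22.0% of all genes. Their log2 differences at 48 h ran from -1.53 to 0.89. At 24 h 2 were lower and 1 higher (median -0.13), beside 3.25% of all genes lower and 2.48% higher. Besides MUC1 the mucins that were tested, named after their values were seen, were MUC3A (-0.08, adjusted p = 0.762) and MUC5AC (-0.38, 0.0894, and 0.0169 with the block). MUC4, MUC13, MUC16 and MUC20 stayed below 4 on all arrays. The enzymes that start O-linked chains included GALNT2, at 8.99, 8.96 and 9.35 in Kbr-treated cells and 10.25, 10.04 and 10.46 in controls at 48 h (-1.15, adjusted p = 0.000324), and GALNT6 (-1.53, adjusted p = 0.000408). Both fell with time in Kbr-treated cells, GALNT2 by 0.84 (adjusted p = 0.011) and GALNT6 by 0.93 (adjusted p = 0.0243), the first lost without Kbr replicate 2 at 48 h and the second without Kbr replicate 1 or 3 at 24 h or replicate 1 at 48 h. In controls the values were -0.35 and -0.53 (adjusted p = 0.222 and 0.189, and 0.0281 for GALNT2 with the block), so that neither was higher at 48 h in controls.

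Of 14 tested genes of protein phosphatase 1 and cAMP signalling, 3 were higher and 2 lower under Kbr at 48 h (median -0.08). These are 21.4% and 14.3%, beside 22.0% and 20.8% of all genes, so nothing is read from the counts. With the replicate block 4 were higher and 4 lower, with no share of all genes counted. PRKAR2B, a regulatory subunit of protein kinase A, was the single gene of all 129 that passed between 48 h and 24 h controls. It stood at 8.08, 8.37 and 8.34 in Kbr-treated cells and 9.41, 9.42 and 9.20 in controls at 48 h, and at 8.12, 7.96 and 7.79 in Kbr-treated cells and 8.53, 8.52 and 8.28 in controls at 24 h. It rose by 0.90 in controls (standard error 0.12, adjusted p = 0.0105), and its value in Kbr-treated cells was 0.30 (adjusted p = 0.137). The difference of the changes, -0.60, did not pass (adjusted p = 0.162, and 0.0481 with the replicate block), and the call in controls was lost without control replicate 3 at 24 h or replicate 1 at 48 h (up to 0.0536). PPP1R15A, the stress-induced partner of phosphatase 1 that reverses phosphorylation of eIF2 alpha, was 1.82 higher under Kbr at 48 h (adjusted p = 0.00385). PPP1R1B and PPP1R1C, the closest relatives of PPP1R1A, stayed below 4.

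The angulin list had 5 tested genes, of which 3 were lower at 48 h, beside 20.8% of all genes. MARVELD1 (-0.49, adjusted p = 0.0148), MARVELD2, which encodes tricellulin (-0.41, 0.0293), and OCLN, which encodes occludin (-0.53, 0.0453), were lower under Kbr at 48 h. With the replicate block OCLN did not pass (adjusted p = 0.0523). The OCLN difference was -0.30 without Kbr replicate 3. MARVELD1 was lost without control replicate 1 (0.0504), MARVELD2 without 4 and OCLN without 10 of the 12 arrays in turn (up to 0.102 and 0.144). The angulin LSR was at 0.16 (adjusted p = 0.81) and MARVELD3 at 0.07 (0.833). ILDR1 stayed below 4. No gene of this list passed between 48 h and 24 h in controls, where OCLN was at 0.50 (adjusted p = 0.172).

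For the MOB family and the Hippo pathway, 6 of 25 tested genes were higher and 1 lower under Kbr at 48 h (median 0.08). These are 24.0% and 4.0%, beside 22.0% and 20.8% of all genes, so the count of higher genes is near the general share. With the replicate block 9 were higher and 5 lower, with no share of all genes counted. MOB4 was 0.60 higher (adjusted p = 0.000595), the kinase gene STK38L 0.69 higher (0.00205), the YAP target CCN2 1.38 higher (0.00291) and AJUBA 1.10 higher (0.00314). Of the other MOB genes, named after their values were seen, MOB2 was 0.32 higher (adjusted p = 0.0238), a call lost without Kbr replicate 1 or either of controls 1 and 2 (up to 0.0846). MOB1A (-0.19), MOB3A (-0.18), MOB1B (-0.07) and MOB3C (0.07) did not pass (adjusted p = 0.083 to 0.774), MOB1A passing with the block at 0.04.

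Of 8 tested genes of B cell receptor signalling, the adaptor NCK1 (0.56, adjusted p = 0.00598) and the ligase CBL (0.47, 0.0061) were higher under Kbr at 48 h in all fits without 1 array. LYN was also higher (0.58, 0.0233) and VAV3 lower (-0.81, 0.0347), and LYN was lost without Kbr replicate 3, or without control 1, where it was 0.37 (up to 0.0804) and VAV3 without any one of Kbr replicates 1 and 3 and controls 1 and 2 (up to 0.11).

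Of 21 tested RAB GTPases and partners of epithelial traffic, 7 were lower and 4 higher under Kbr at 48 h (median -0.03). These are 33.3% and 19.0%, beside 20.8% and 22.0% of all genes. RAB27B, which acts in secretion of vesicles, stood at 6.56, 6.93 and 7.25 in Kbr-treated cells and at 8.82, 9.07 and 9.27 in controls (-2.14, standard error 0.17, adjusted p = 2.82e-05). It fell by 1.54 between 24 and 48 h in Kbr-treated cells (adjusted p = 0.0016) and was at -0.39 in controls (0.211). For the difference between these changes with time, 0 of the 21 genes passed in the main fit and 1 was lower with the replicate block. RAB3D (-0.72, adjusted p = 0.00185) and RAB11FIP1 (-0.58, 0.000853) were lower and the early endosome GTPase RAB21 was higher (0.72, 0.000112). None of the 21 passed between 48 h and 24 h in controls, and RAB5A (0.69, adjusted p = 0.0142) was the one that rose in Kbr-treated cells. That rise was lost without Kbr replicate 3 at 24 h or replicate 2 at 48 h. With the replicate block 3 of the 21 rose and 3 fell in controls, and 2 rose and 6 fell in Kbr-treated cells.

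Epithelial identity genes had 21 tested members, of which 9 were lower and none higher under Kbr at 48 h (median -0.45), beside 20.8% and 22.0% of all genes. At 24 h 5 were lower and none higher (median -0.53), beside 3.25% of all genes lower and 2.48% higher. With the replicate block 14 were lower and 1 higher at 48 h, and 12 lower and 0 higher at 24 h. The share of all genes called with the block was not counted, so these block counts have none beside them. CGN, or cingulin, was lower by a log2 difference of -2.38 at 48 h (adjusted p = 0.000126) and -1.74 at 24 h (0.00775). The periplakin gene PPL was lower by a log2 difference of -2.91 at 48 h (adjusted p = 4.93e-06) and -2.22 at 24 h (0.000288). No gene of the list passed between 48 h and 24 h in controls, although 2 were higher and 3 lower with the replicate block.

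Over all 129 list genes, 16 were lower and 2 higher under Kbr at 24 h, beside 3.25% and 2.48% of all genes. With the replicate block 37 were lower and 5 higher. The 18 calls became 4 to 9 when any one of the 24 h Kbr arrays, or control replicate 1 or 2 at 24 h, was left out. In Kbr-treated cells 12 fell and 8 rose between 24 and 48 h, beside 5.04% and 5.6% of all genes, and 27 fell and 24 rose with the block. The 20 calls became 6 to 13 when any one Kbr array other than replicate 3 at 48 h was left out, and 36 without that one. In controls 1 rose and 0 fell, beside 1.42% and 1.88% of all genes, 3.29% in all (25 of the 129 at an unadjusted p under 0.05). With the block 11 rose and 16 fell. It was 0 without control replicate 3 at 24 h or replicate 1 at 48 h and 5 without control replicate 3 at 48 h. For the difference between the changes with time 0 of 129 passed with limma, and 21 had an unadjusted p under 0.05; over all genes 15 passed, 0.141%, of which 0.075% lower and 0.0656% higher. With the replicate block 5 were lower and 2 higher, and 9 passed without Kbr replicate 3 at 48 h. The replicate numbers pair the arrays in these data, which the main fit left out and the block took in. The share of all genes called with the block was not counted.

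Nephron segment and other cell type markers are given beside the members. Of 13 measured proximal tubule markers PAX8, CDH6, CDH2 and SLC3A1 were above background, and 9, LRP2, CUBN and AQP1 among them, were below 4 on all arrays. The sum of the 13 log2 values at 48 h was 62.2 to 62.8 in Kbr arrays and 65.7 to 66.7 in controls. Of the 4 above background, 3 were lower under Kbr at 48 h (limma adjusted p under 0.05), beside 20.8% of all genes. The other, at a log2 difference of 0.40, did not pass but was higher with the replicate block. Of 10 distal nephron and collecting duct markers AQP3 and CDH16 were above background, and the sums at 48 h were 33.2 to 33.9 in Kbr arrays and 37.7 to 38.8 in controls. Both AQP3 and CDH16 were lower under Kbr at 48 h (limma adjusted p under 0.05). Of 10 fibroblast and endothelial markers COL1A1, DCN and LUM were above background, and 7, COL3A1 and PECAM1 among them, were below 4 on all arrays. Their sums were 43.8 to 44.5 in Kbr arrays and 49.2 to 49.9 in controls at 48 h. COL1A1, DCN and LUM were all lower under Kbr at 48 h in the same test, so lower calls were not particular to proximal tubule markers. The part of these genes in the members' values was not tested.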

How the data were processed

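Transcript levels of 12 cultures of HK-2 cells were measured on Affymetrix arrays from total RNA. The authors deposited log2 expression values, for which the submitters' processing notes name GCRMA. This method models background from probe sequence and then applies quantile normalization and probe summary, so that weak probe sets are pulled to a floor. No version or setting was stated in the labels. That the scale is log2 follows from array maxima of 16.0 to 16.2. Precision is limited by how many arrays there are.

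Of 54675 probe sets 41091 had 1 gene symbol, 1801 several and 11721 none, and 62 were array controls; only those with 1 symbol were used. Each gene was represented by its probe set of highest mean, and genes above 4 in at least 3 arrays were tested. Group means were fitted to all 12 arrays with limma 3.58.1 in R 4.3.3, with Benjamini-Hochberg adjustment over 10665 genes and a threshold of 0.05. P values are two-sided. The fit was tested on simulated data. Deviations from group means correlated at 0.28 to 0.70 between arrays of the same replicate number and at -0.45 to -0.06 between different numbers. The labels' numbers thus pair the arrays. The main fit left this pairing out, and the replicate block took it in. Shares of all genes called were counted for the main fit and not for the block.

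The members and the gene lists were chosen with earlier results of these data known. Named were the members, the 3 nearest genes of each, up to 4 genes of smallest p per list and comparison, and all angulins. Alternatives were a repeated quantile normalization, subtraction of array medians, the mean of probe sets, values below 4 set to 4, no filter, a floor of 6, an intensity trend with robust variance, the replicate block, and each array left out.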

Additional observations from a re-analysis of the deposited data

Results flagged for a closer look

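In 2 of the 7 genes all 3 replicate numbers moved one way with time in controls and the other way in Kbr-treated cells. The share of all tested genes with this property was not counted. The narrower combination of controls higher and Kbr-treated cells lower at 48 h, both without overlap, occurred in 0.534% of tested genes. The 48 h Kbr values of ILDR2 lay just above 4. For ILDR2 the change with time in Kbr-treated cells minus that in controls was -1.40, with changes of -0.84, -0.49 and -0.33 in Kbr-treated cells and of 0.87, 0.76 and 0.92 in controls. For MUC1 it was -1.32, with changes of -0.31, -0.62 and -0.37 in Kbr-treated cells and of 0.87, 0.68 and 1.10 in controls. These differences were not tested, because the genes were chosen on them.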

How the results depend on the processing

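The median over the 6 genes of the difference between the changes with time was -1.46, lay between -1.59 and -1.38 when 1 array was left out, and became -0.94 with the mean of all probe sets, which averages in probe sets at the floor. With values below 4 set to 4, the change in controls was 3.15 for BLNK and 1.45 for MOB3B, and the changes of BLNK and MOB3B in Kbr-treated cells were 0. Of 336 values for single genes under an alternative, 23 moved by more than the spread between replicate numbers. Many of these were the MOB3B difference of changes. Its spread of 0.023 rested on values mostly below 4, so small shifts count as moved there. The 18 list genes called at 24 h became 10 without a filter and 42 with the replicate block, and 4 to 23 with 1 array left out. The 61 called at 48 h became 83 with the replicate block and 47 to 61 with 1 array left out, and lay between 52 and 63 under the other alternatives. The 1 called in controls over time became 3 without a filter, 2 with an intensity trend, 27 with the replicate block, and 0 to 5 with 1 array left out. The 20 called over time in Kbr-treated cells became 11 without a filter, 51 with the replicate block, and 6 to 36 with 1 array left out. The 0 called for the difference of changes became 7 with the replicate block and 0 to 9 with 1 array left out. The cause of these shifts was not tested. The count of the 6 genes lower under Kbr at 24 h without overlap was 5, and 6 without control replicate 3, an alternative added after seeing the data.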
